A study of Homo sapiens with 9 samples.

Results

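Colon epithelium is not muscle, yet the RNA of the colon adenocarcinoma line Caco-2 contains transcripts whose proteins are best known from the sarcomere, the sarcolemma and muscle wasting. Described here are 10 genes grouped as muscle-type out of the 60591 gene symbols counted in this series. They are MYBPH, TNNI2, TNNT1, TNNC1, TNNC2, TPM2, DYSF, CSRP2, FSCN1 and FBXO32. The proteins of FSCN1 and CSRP2 bundle actin and are not restricted to muscle. All 10 genes were chosen by name. MYBPH, TNNI2, FBXO32, DYSF and CSRP2 were picked because their RNA levels differed strongly between these same libraries, so their values are given as a description and without tests. The other 5 were not picked for a change. FSCN1, like MYBPH, DYSF and CSRP2, also belongs to a core list of hypoxia genes that the study assembled partly from these libraries. Its direction and its calls against control are therefore not independent evidence.

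The study asked which genes respond when the hypoxia-inducible factor HIF is switched on chemically in an intestinal model. Undifferentiated Caco-2 cells were kept for 24 h in medium with 300 μM CoCl2, in medium with 5 μM of an oxyquinoline derivative (OD) or in control medium, and 0.5% DMSO was present in all 3 media. Each group had 3 biological replicates, and the poly(A) RNA of all 9 was sequenced with a stranded library kit. All libraries come from a single tumour line grown without differentiation, and differentiated Caco-2 cells were not analysed here. Cobalt ions and OD both stabilise HIF by inhibiting the prolyl hydroxylases that mark it for degradation, but cobalt also has other targets in the cell.

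In striated muscle, calcium binds troponin C, which relieves the block that troponin I holds on actin, while troponin T ties the complex to tropomyosin along the thin filament. Myosin-binding proteins sit on the thick filament, dysferlin helps to reseal the torn sarcolemma, and atrogin-1, the product of FBXO32, tags muscle proteins for the proteasome during atrophy. Fascin and the cysteine-rich LIM protein encoded by CSRP2 bundle actin filaments and are not restricted to muscle.

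Libraries held 15998136 to 18298190 counts in control, 16286502 to 24209427 with CoCl2 and 16387054 to 19623776 with OD. Levels are in CPM, that is, counts scaled to a common library size with TMM factors, means are over 3 libraries with their SD, and differences are log2 fold changes with their standard error (SE) from edgeR's quasi-likelihood fit. A gene was called where the adjusted p was below 0.05 and the log2 difference exceeded 1 in size. The TMM factors were 0.770 to 0.795 with CoCl2 against 1.11 to 1.12 in control and 1.14 to 1.15 with OD. With plain library size in their place, the median log2 difference of all tested genes moved from -0.049 to -0.55 for CoCl2 against control and from -0.054 to -0.60 for CoCl2 against OD, and the share of calls that were higher moved from 46% to 23.9% and from 42.4% to 18.3%. CoCl2 values below are therefore relative to most other genes, and calls that changed with library size alone are given for the 10 genes and for many, not all, of the related genes.

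Several defining genes of skeletal muscle were nearly absent, while other muscle-linked genes were present. The myogenic factors MYF5 and MYF6 had no count in any library, MYOD1 and MYOG had none in control or OD libraries and at most 2 and 1 counts with CoCl2, and the myosin heavy chain MYH1 had none anywhere. Of 30 genes that define skeletal and cardiac muscle, 11 were abundant enough to test. The list's summed level was 83.7 to 92.5 CPM in control. Most of it came from TTN (36.4 CPM) and NEB (28.2 CPM), the genes of the giant filament proteins titin and nebulin. Among 20 genes listed as myogenic factors, 8 had a mean of at least 1 CPM in control, and that list summed to 486.3 to 530.7 CPM. None of this sum came from MYF5, MYF6, MYOD1 or MYOG. The 10 smooth muscle genes summed to 884.1 to 902.9 CPM in control, most of it from TAGLN (828.9 CPM). The epithelial markers KRT8, KRT18, CDH1 and EPCAM were present at mean levels of 4983, 2867, 986 and 752 CPM in control, although the intestinal factor CDX1 was at 0 counts. The desmin gene DES, a marker of all muscle types, had 1 to 3 counts per control library, none with CoCl2 and 6 to 14 with OD. In bulk RNA, fewer cells of a type and less RNA per cell cannot be told apart.

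**Figure D1:**
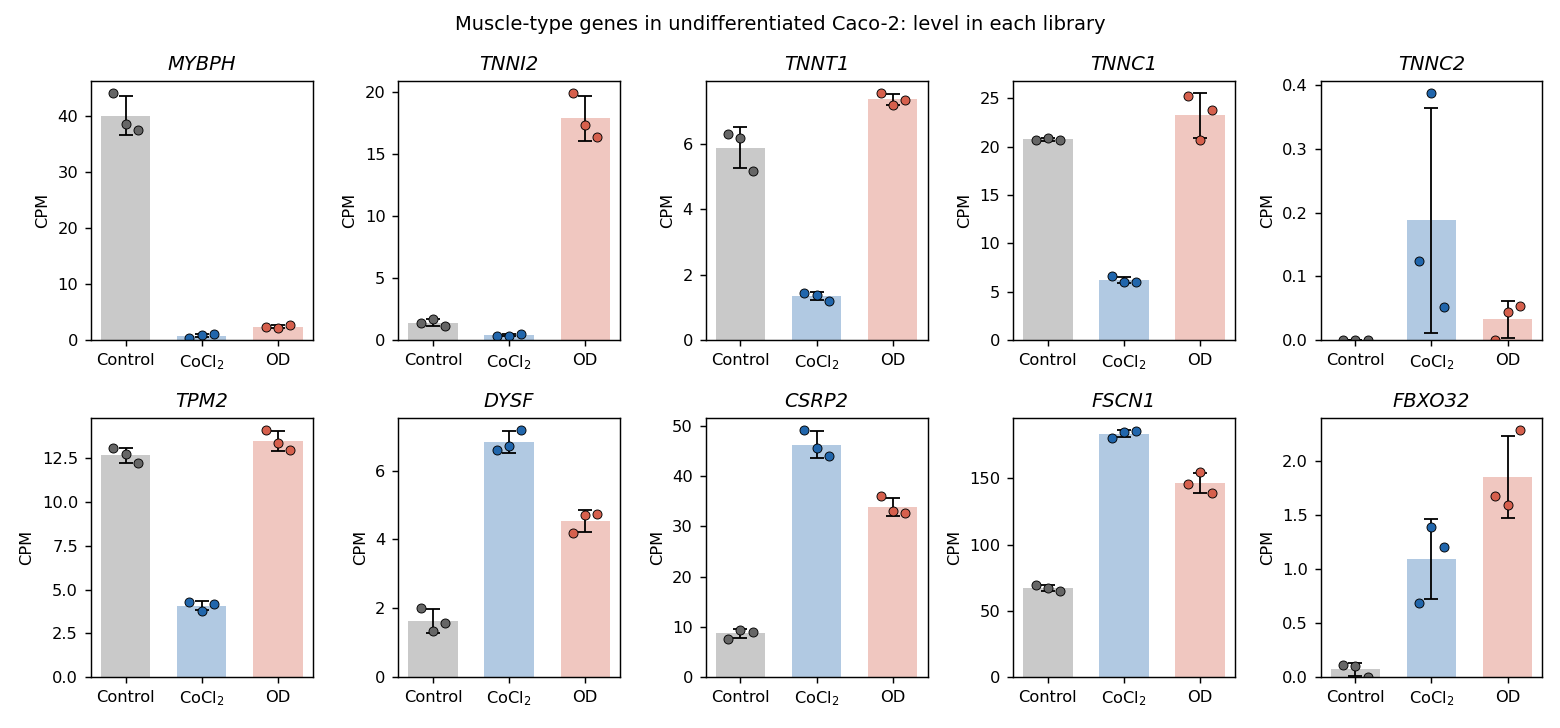
CPM of the 10 genes (vertical axes, separate scales) in the 3 control, 3 CoCl2 and 3 OD libraries. Points are libraries, bars are means and error bars are SD. MYBPH stood high in control only, TNNI2 high with OD only, and TNNT1, TNNC1 and TPM2 low with CoCl2 only.

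MYBPH encodes myosin-binding protein H, a small relative of myosin-binding protein C. The gene lies on the minus strand at chr1:203167811-203175826 (GRCh38). Its level was 44.1, 38.7 and 37.5 CPM in the control libraries, 0.435, 1.01 and 1.05 CPM with CoCl2 and 2.32, 2.13 and 2.66 CPM with OD. The groups did not overlap, and control was far above both treatments. Mean levels were 40.1 ± 3.52 CPM in control, 0.830 ± 0.342 CPM with CoCl2 and 2.37 ± 0.270 CPM with OD, all apart by far more than their SD. The fitted log2 differences were -5.58 (SE 0.140) with CoCl2 and -4.09 (SE 0.106) with OD, or 47.8-fold and 17.0-fold below control. With 7, 13 and 20 counts in the CoCl2 libraries, the CoCl2 fold rests on few reads.

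The rest of the myosin-binding protein C family was hardly expressed. MYBPC1, MYBPC2, MYBPC3 and MYBPHL all failed the filter on low counts and summed to between 0.337 and 0.944 CPM per library. MYBPC2, the fast skeletal form, had 4 to 10 counts per control library, 0 or 1 with CoCl2 and 9 in each OD library. MYBPC1 went the other way with CoCl2, with 0 or 1 counts per control library, 5 to 16 with CoCl2 and 0 to 2 with OD.

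Around MYBPH, neighbouring genes differed as well. CHI3L1, which encodes a secreted chitinase-like glycoprotein and lies 3104 bases upstream on the same strand, had mean levels of 190.9, 74.5 and 62.2 CPM in control, CoCl2 and OD, and was called lower with both compounds (log2 differences -1.36 and -1.62, adjusted p = 5.98e-36 and 3.34e-39 by edgeR). The adenosine receptor gene ADORA1 ends 405 bases downstream on the opposite strand and had 30.4, 4.39 and 20.8 CPM. It was called lower with CoCl2 (log2 difference -2.79, edgeR adjusted p = 2.57e-36) but with OD the difference was -0.54, under the size needed for a call. CHIT1, 37000 bases upstream on the same strand, was low, at 0.862, 0.099 and 0.146 CPM in control, CoCl2 and OD. It was called lower with both compounds (-2.97 and -2.55, edgeR adjusted p = 6.75e-07 and 1.23e-06). Over all tested genes, 23.4% were called lower with CoCl2 and 4.16% with OD. Near other members the picture was mixed. ZNF638 by DYSF had log2 differences of 0.078 with CoCl2 and -0.079 with OD. NISCH by TNNC1 was at 0.45 with CoCl2 and 0.41 with OD. ARHGEF39 by TPM2 was called lower with CoCl2 (-2.74) and also with OD (-1.62), where TPM2 was not called. PTPRH by TNNT1 was called higher with CoCl2 (1.16) and with OD (1.38), while TNNT1 was called lower with CoCl2. All these neighbours were looked up because they lie within 50 kb, and that they share a cause with the gene beside them was not tested.

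Promoter windows were read for 5 of the 10 genes, MYBPH, TNNT1, DYSF, CSRP2 and TPM2, and not for the other 5. Each window ran from 250 bases before to 50 after a start annotated in RefSeq's table (GRCh38.p14). Of the windows read, 4 are shown because they belong to genes with clear shifts in both directions. Capitals mark matches, on either strand, of the hypoxia response cores ACGTG and GCGTG and of the E-box CANNTG, the letters bound by many helix-loop-helix factors; an E-box written CACGTG would also hold the core ACGTG. MYBPH is at chr1:203175777-203176076, TNNT1 at chr19:55149157-55149456, DYSF at chr2:71453311-71453610 and CSRP2 at chr12:76878970-76879269, all written along the gene's own strand.
MYBPH: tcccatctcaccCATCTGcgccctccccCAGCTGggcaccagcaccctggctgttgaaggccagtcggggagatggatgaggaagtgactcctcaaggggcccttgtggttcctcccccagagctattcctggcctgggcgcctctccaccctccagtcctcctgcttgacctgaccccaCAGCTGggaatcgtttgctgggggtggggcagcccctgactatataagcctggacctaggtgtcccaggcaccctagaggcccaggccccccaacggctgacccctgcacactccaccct
TNNT1: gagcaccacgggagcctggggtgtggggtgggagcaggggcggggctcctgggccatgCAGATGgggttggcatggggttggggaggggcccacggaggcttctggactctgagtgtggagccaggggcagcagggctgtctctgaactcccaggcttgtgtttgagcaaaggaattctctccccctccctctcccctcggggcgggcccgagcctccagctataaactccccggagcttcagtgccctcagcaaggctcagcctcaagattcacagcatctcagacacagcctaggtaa
DYSF: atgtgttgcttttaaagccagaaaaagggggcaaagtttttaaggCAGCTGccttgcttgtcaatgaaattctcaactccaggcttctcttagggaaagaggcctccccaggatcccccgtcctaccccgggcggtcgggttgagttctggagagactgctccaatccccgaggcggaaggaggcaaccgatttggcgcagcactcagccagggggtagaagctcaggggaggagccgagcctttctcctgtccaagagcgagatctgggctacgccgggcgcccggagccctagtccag
CSRP2: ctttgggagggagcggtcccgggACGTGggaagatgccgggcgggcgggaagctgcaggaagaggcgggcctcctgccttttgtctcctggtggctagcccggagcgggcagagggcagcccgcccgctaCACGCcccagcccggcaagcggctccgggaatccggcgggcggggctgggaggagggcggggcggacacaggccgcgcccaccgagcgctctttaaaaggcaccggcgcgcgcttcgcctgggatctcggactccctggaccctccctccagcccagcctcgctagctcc

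The MYBPH window held 3 E-boxes, with their first base at -238, -222 and -70 from the start, and neither hypoxia core. The CSRP2 window held 1 ACGTG at -227, 1 GCGTG at -120 and no E-box. A second annotated start of CSRP2 had neither core. In the DYSF and TNNT1 windows only a single E-box was found, at -205 and -192. Both windows of TPM2 held 1 GCGTG. The muscle motifs M-CAT (CATTCC), MEF2 and CArG had no match in any of these windows. Among all 35114 windows of this length, 21.4% held ACGTG, 36.5% GCGTG, 68.7% CANNTG, 14% M-CAT, 0.572% MEF2 and 1.29% CArG. These are matches of letters, not bound sites.

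TNNI2 encodes the fast skeletal form of troponin I, the inhibitory subunit. The gene is on the plus strand at chr11:1838981-1841680. Control libraries held 1.40, 1.67 and 1.12 CPM, CoCl2 libraries 0.373, 0.310 and 0.472 CPM, and OD libraries 19.9, 17.3 and 16.4 CPM. The order was thus OD far above control and control above CoCl2, with no overlap between groups. Against control, the fitted log2 difference was 3.66 (SE 0.136) with OD, a 12.7-fold higher level, and -1.82 (SE 0.334) with CoCl2, where the libraries had only 6, 4 and 9 counts. Between the compounds the level differed by 44.6-fold, the log2 difference of CoCl2 against OD being -5.48 (SE 0.186).

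TNNC1 encodes the troponin C of slow skeletal and cardiac muscle, the calcium sensor (chr3:52451100-52454041, minus strand). It stood at 20.7, 20.9 and 20.7 CPM in control, 6.59, 6.04 and 6.03 CPM with CoCl2 and 25.2, 20.7 and 23.7 CPM with OD. CoCl2 libraries lay below all others, while control and OD overlapped. TNNC1 was called lower with CoCl2, 3.34-fold (log2 difference -1.74, SE 0.0985, adjusted p = 6.15e-25 by edgeR). With OD the log2 difference was 0.16, its 95% interval ran from 0.015 to 0.30, and it missed the threshold (edgeR adjusted p = 0.0526).

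TNNT1 encodes slow skeletal troponin T, the tropomyosin-binding subunit (chr19:55132698-55149206, minus strand). Its levels were 6.29, 6.18 and 5.16 CPM in control, 1.43, 1.39 and 1.21 CPM with CoCl2 and 7.54, 7.19 and 7.35 CPM with OD. CoCl2 was lowest and OD slightly above control in all libraries. The fall with CoCl2 was 4.41-fold (log2 difference -2.14, SE 0.177, edgeR adjusted p = 2.19e-17). With OD, the log2 difference of 0.32 (SE 0.115, edgeR adjusted p = 0.0125) was too small for a call.

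TNNC2, the gene of fast skeletal troponin C (chr20:45823214-45833745, minus strand), was at the edge of detection. It had 0 counts in each control library, 2, 5 and 1 with CoCl2, and 0, 1 and 1 with OD, so it failed the filter and no fold is given. A count of 0 allows up to 3 counts, on average 0.159 CPM in a control library, and this limit covers counting error only.

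Set against transcript length, the troponin genes were far from equal. Per kilobase of annotated exons, the control level was 18.2 ± 0.130 CPM for TNNC1, 2.77 ± 0.294 for TNNT1 and 1.28 ± 0.250 for TNNI2, each step larger than the SD. With CoCl2 all 3 levels were lower, at 5.45, 0.634 and 0.354 CPM per kb. With OD the level of TNNI2 was 16.4 ± 1.66 CPM per kb beside 20.4 ± 2.00 for TNNC1 and 3.47 ± 0.0822 for TNNT1. TNNI2 therefore stood below TNNT1 in control and above it with OD, an order that was the same per kilobase of the canonical transcript (1.86 and 5.29 in control, 23.8 and 6.62 with OD).

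**Figure D2:**
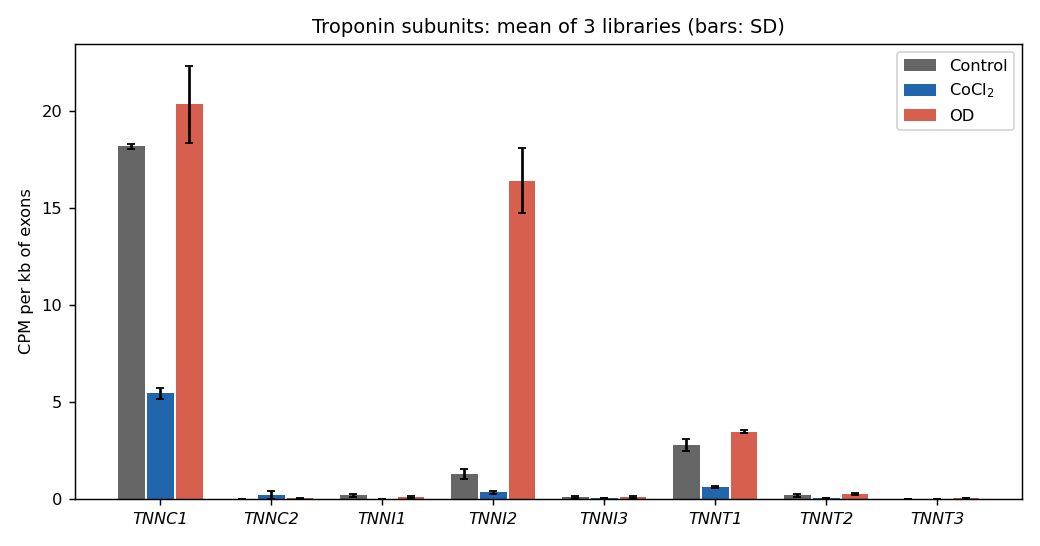
Mean CPM per kb of annotated exons (vertical axis) of the 8 troponin genes in control, CoCl2 and OD libraries. Bars are means of 3 libraries and error bars SD. Only TNNC1, TNNT1 and TNNI2 rise visibly above 0, and TNNI2 with OD (16.4) reaches the range of TNNC1 (20.4).

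The other troponin genes were low. Of TNNI1, TNNI3, TNNT2 and TNNT3, 2 were testable, and both were called lower with CoCl2 (median log2 difference -2.84, against -0.049 for all genes). TNNT2, cardiac troponin T, had mean levels of 1.30, 0.326 and 1.84 CPM in control, CoCl2 and OD (log2 difference with CoCl2 -1.96, SE 0.372, edgeR adjusted p = 3.05e-06). TNNI1, slow troponin I, had 1.45, 0.102 and 0.728 CPM and was called lower with OD too, at -1.01 (SE 0.301, edgeR adjusted p = 0.00257), a call that library size alone and DESeq2 removed. TNNI1 lies under the level set for naming list genes, a mean of 1 CPM over the 9 libraries, and was added after its values were seen. TNNT3, fast troponin T, had 0 counts in control and CoCl2 libraries and 3 in each OD library.

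TPM2 encodes β-tropomyosin, the coiled coil on which troponin T sits (chr9:35681992-35690056, minus strand). The libraries held 13.1, 12.7 and 12.2 CPM in control, 4.29, 3.79 and 4.14 CPM with CoCl2 and 14.1, 13.4 and 12.99 CPM with OD. As for TNNC1, CoCl2 libraries were all lowest and OD overlapped with control. TPM2 fell 3.09-fold with CoCl2 (log2 difference -1.63, SE 0.114, edgeR adjusted p = 1.82e-20). With OD the difference was 0.090 with a 95% interval from -0.078 to 0.26 (edgeR adjusted p = 0.360), so the libraries are compatible with any value in that interval.

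Among 10 further tropomyosin, tropomodulin and leiomodin genes, 5 were tested. With CoCl2 none was called higher and 2 lower, namely TPM4 (-1.13) and TMOD1 (-1.18), which caps the pointed end of actin filaments. With OD only TMOD1 was called, and it was higher (1.25), from 0.958 to 2.27 CPM. The abundant TPM1 and TPM3, at 167.3 and 716.0 CPM in control, were not called in either comparison with control, but library size alone added a lower call for TPM1 with CoCl2 (-1.34 in place of -0.83). Median log2 differences were -0.83 with CoCl2 and -0.24 with OD.

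Of the 5 genes that were not picked for a change, 4 were tested. FSCN1 among them is on the study's core list, drawn partly from these libraries, and all were chosen with earlier results known. The counts below therefore describe these genes and are not those of an unselected sample. Against control, 3 of the 4 were called lower with CoCl2 and 1, FSCN1, higher, where 23.4% of all 15944 tested genes were called lower and 19.9% higher. With OD, 1 of 4 was called higher, again FSCN1, and none lower, against 9.09% and 4.16% of all tested genes. Comparing CoCl2 directly with OD, TNNT1, TNNC1 and TPM2 were called lower (log2 differences -2.46, -1.90 and -1.72, edgeR adjusted p = 3.52e-21, 1.90e-27 and 4.88e-22) and none was called higher, where 23.8% and 17.5% of all genes were called lower and higher.

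**Figure D3:**
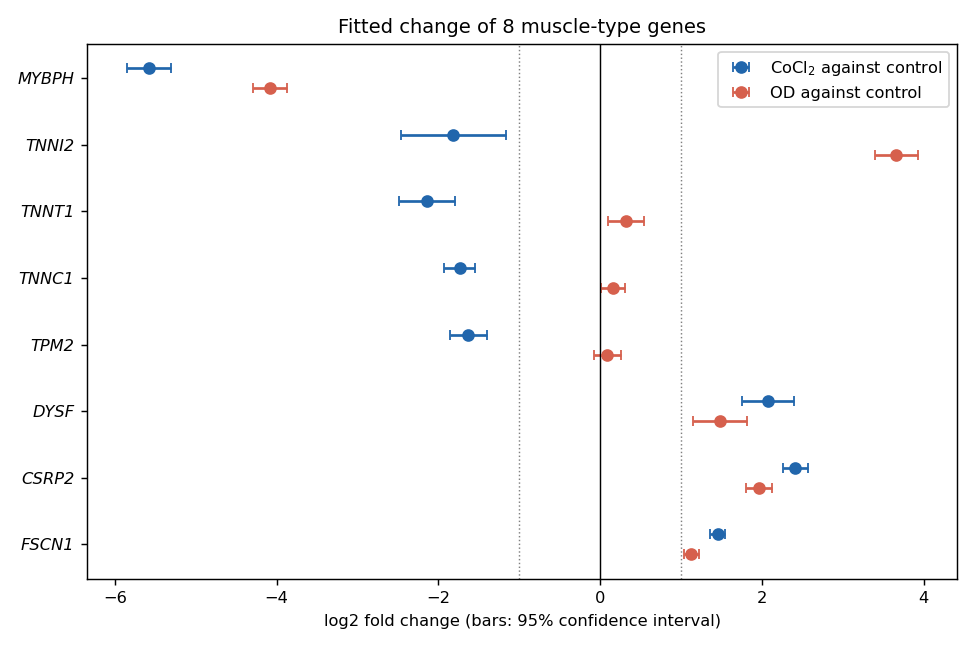
Log2 difference from control (horizontal axis) of 8 genes with CoCl2 and with OD. Points are edgeR estimates from 3 against 3 libraries, bars are 95% confidence intervals and dotted lines mark a log2 difference of 1. MYBPH, TNNI2, DYSF and CSRP2 were picked for large changes in these same libraries, so their intervals are descriptive and no test against 0. MYBPH lies left of 0 and DYSF, CSRP2 and FSCN1 right of 0 with both compounds, while TNNI2 lies on opposite sides.

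FSCN1 encodes fascin, which packs actin filaments into the tight bundles of filopodia (chr7:5592816-5606655, plus strand). It had the highest CPM of the 10 genes, with 69.4, 66.9 and 65.0 CPM in control, 180.8, 185.1 and 185.8 CPM with CoCl2 and 145.9, 154.6 and 139.1 CPM with OD. The 3 groups were well apart, with control lowest. Since FSCN1 is on the core list, its p-values against control describe these libraries and are not independent evidence. The level was 2.74-fold higher with CoCl2 (log2 difference 1.45, SE 0.0472, edgeR adjusted p = 1.25e-37), which fell to 0.95 and under the size for a call with library size alone, and 2.19-fold higher with OD (1.13, SE 0.0469, edgeR adjusted p = 7.43e-31). Between the compounds the log2 difference was 0.33 in favour of CoCl2, too small for a call, and it turned to -0.22 with library size alone.

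Of 13 other actin-bundling and cross-linking genes, 11 were tested. With CoCl2, EPS8 (2.01), whose protein caps and bundles actin, and FLNC (2.00), the muscle-enriched filamin, were called higher, and VIL1 (-2.45) and ESPN (-2.16), the villin and espin genes of the microvillus core, were called lower. With OD, EPS8 (1.27) was the only call. Villin RNA went from 612.7 CPM in control to 112.2 CPM with CoCl2 and 454.4 CPM with OD. The list medians of 0.055 and -0.18 were near those of all genes.

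CSRP2 encodes a cysteine-rich LIM protein that binds actin bundles and is known from smooth muscle (chr12:76858709-76879023, minus strand). Control libraries had 7.64, 9.41 and 8.92 CPM, CoCl2 libraries 49.2, 45.6 and 44.1 CPM and OD libraries 36.0, 33.0 and 32.6 CPM. Both treated groups stood well above control and did not overlap with each other. The log2 differences from control were 2.41 (SE 0.0792) with CoCl2 and 1.97 (SE 0.0801) with OD, or 5.33-fold and 3.91-fold. The smaller difference between the compounds, 0.45 (SE 0.0630), turned to -0.099 with library size alone.

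Among 16 other genes of LIM domain proteins, 12 were tested. CoCl2 gave 3 higher and 2 lower calls, with FHL2 (1.46) and LMCD1 (1.08) higher and CSRP1 (-1.49), a close relative of CSRP2, and PDLIM3 (-1.16) lower. Library size alone removed the calls of FHL2 (0.95) and LMCD1 (0.57). OD gave 3 higher calls and no lower one, with CRIP2 (2.59) and PDLIM3 (1.26) among them. The remaining higher call with each compound was FHL1, at 0.0709 CPM in control, 0.477 CPM with CoCl2 and 0.454 CPM with OD, which is under the level set for naming and was added after its values were seen. CSRP1 was at 165.3 CPM in control, 58.3 CPM with CoCl2 and 153.8 CPM with OD, while the striated muscle form CSRP3 had at most 2 counts in a library. PDLIM3 thus passed the test in opposite directions with the compounds, from 2.84 CPM to 1.28 CPM with CoCl2 and to 6.82 CPM with OD.

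DYSF encodes dysferlin (chr2:71453561-71686763, plus strand). It was present at 1.99, 1.32 and 1.57 CPM in control, 6.59, 6.73 and 7.18 CPM with CoCl2 and 4.18, 4.70 and 4.74 CPM with OD. All treated libraries were above all control libraries, and CoCl2 was above OD. The log2 differences were 2.08 (SE 0.164) and 1.48 (SE 0.170), or 4.22-fold and 2.79-fold, and that between the compounds, 0.60, shrank to 0.051 with library size alone. An annotated gene on the opposite strand overlaps 6.02% of the exonic bases of DYSF, and whether strand was used in counting is not given in the sources used here.

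Of 17 other ferlin and membrane-repair genes, 11 were tested. The closely related MYOF was far more abundant, with 540.9, 323.9 and 518.7 CPM in control, CoCl2 and OD, and was not called, though library size alone made it a lower call with CoCl2 (-1.24 in place of -0.74). With CoCl2, the annexin gene ANXA1 (1.93) and EHD1 (1.18) were called higher and EHD2 (-2.03) and ANXA6 (-1.75) lower, and with OD none of the 11 was called in either direction. The call of EHD1 was lost with library size alone (0.67). The muscle-restricted partners CAV3 and TRIM72 had at most 2 counts in a library.

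FBXO32 encodes atrogin-1, the substrate receptor of a muscle ubiquitin ligase (chr8:123497889-123541206, minus strand). It had 2, 2 and 0 counts in control, 11, 18 and 23 with CoCl2 and 37, 36 and 43 with OD, equal to 0.684, 1.39 and 1.21 CPM with CoCl2 and 1.68, 1.60 and 2.29 CPM with OD. Both treated groups were above every control library, and the OD libraries carried it past the filter on low counts, which it failed when control and CoCl2 libraries were taken alone. Set against a floor of 3 counts per control library, the mean was at least 6.89-fold higher with CoCl2 and at least 11.7-fold higher with OD. All OD libraries lay above all CoCl2 libraries, the log2 difference of CoCl2 against OD being -0.76 (SE 0.265), or -1.30 with library size alone.

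Among 15 other genes of atrophy-linked ubiquitin ligases and their FOXO regulators, 12 were tested. CoCl2 gave 3 higher calls, FBXO30 (2.28), FOXO1 (1.61) and SKP1 (1.24), and no lower one, and OD gave 1, FOXO4 (1.49). The counts of higher calls were near the shares of all tested genes called higher, 19.9% with CoCl2 and 9.09% with OD. FBXO30, which encodes another ubiquitin ligase receptor induced in atrophy, was at 49.0 CPM in control, 239.3 CPM with CoCl2 and 30.1 CPM with OD. SKP1 encodes the adaptor of the same class of ligases, and its call was lost with library size alone (0.74). TRIM63, which encodes MuRF1 and is often followed together with atrogin-1 in wasting muscle, was near the limit of detection with mean levels of 0.169, 0.325 and 0.178 CPM. List medians were 0.39 with CoCl2, where library size alone gave -0.12 with 2 calls in each direction, and 0.11 with OD.

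The 30 genes that define skeletal and cardiac muscle did not move as a block. In this list, CoCl2 gave 3 higher and 2 lower calls of 11 tested. TCAP (2.82), the titin cap, and ACTA1 (1.81), skeletal actin, were higher, and MYL3 (-2.46), a slow myosin light chain, and NEB (-2.07) lower. ACTN2, sarcomeric α-actinin, was the other higher call, from 0.0327 CPM in control to 2.64 CPM with CoCl2. Its mean over the 9 libraries is under the level set for naming, and it was added after its values were seen. TTN, at -0.53, became a lower call with library size alone (-1.03). With OD, TCAP (1.90) was higher and NEB (-1.39) and MYLPF (-1.11), the fast regulatory light chain, were lower. The list's summed level was 48.4 to 54.2 CPM with CoCl2 and 72.6 to 75.3 CPM with OD, both below control.

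Of 20 myogenic transcription factor genes, 8 were tested. MEF2D, a partner of the myogenic factors, was called higher with CoCl2 (2.37) and with OD (1.18), from 17.3 to 89.1 and 39.1 CPM. MRTFA, a coactivator of serum response factor that senses free actin, was called higher with CoCl2 (1.47), and no factor was called lower against control with either compound. With library size alone the CoCl2 calls became 1 higher and 2 lower, and MRTFA lost its call (0.97). The medians were 0.063 and 0.26.

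Of 10 smooth muscle genes, 6 were tested. Against control, MYLK (-2.44) and CNN1 (-1.05) were called lower with CoCl2 and CNN1 (-2.10), ACTG2 (-1.32) and TAGLN (-1.21) with OD, with medians of -0.92 and -0.80. These were 2 and 3 of the 6, where 23.4% and 4.16% of all tested genes were called lower. Library size alone added lower calls for TAGLN (-1.45) and ACTG2 (-1.40) with CoCl2. Non-muscle actomyosin genes were all abundant enough to test. Of the 17, CoCl2 gave lower calls for MYL9 (-1.95), MYH10 (-1.21) and CALD1 (-1.02) and OD for ACTB (-1.14) and MYL9 (-1.02), and none was called higher with either compound. With library size alone MYL9 lost its call with OD (-0.97).

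Set directly against OD, CoCl2 libraries had 2 lower calls among troponins outside the 10 genes and no higher one. TPM3 (1.01) was called higher and TMOD1 (-2.43) lower among tropomyosins and tropomodulins. The ferlin and membrane-repair list had 2 calls in each direction, including ANXA1 (1.73) and EHD2 (-2.21). LIM domain genes had 1 higher and 4 lower calls, with FHL2 (1.60) higher and PDLIM3 (-2.42), CRIP2 (-1.81) and CSRP1 (-1.39) lower. FLNC (1.16) was higher and ESPN (-3.03) and VIL1 (-2.02) lower among the bundling genes, and FBXO30 (2.99) and SKP1 (1.17) were higher among the ubiquitin ligase and FOXO genes. The muscle-defining list had 2 calls in each direction, with ACTN2 (3.99) and ACTA1 (2.20) higher and MYL3 (-2.58) and RYR1 (-1.46), the ryanodine receptor gene, lower. MEF2D (1.19) and MRTFA (1.07) were higher and MRTFB (-1.06) lower among the myogenic factors, CNN1 (1.04) was higher and MYLK (-2.05) lower among smooth muscle genes, and the actin genes ACTB (1.24) and ACTG1 (1.20) were higher and CALD1 (-1.12) lower among non-muscle actomyosin genes. Library size alone removed the higher calls of TPM3, FLNC, SKP1, MEF2D, MRTFA, CNN1, ACTB and ACTG1 in this comparison. With library size alone, calls for CoCl2 against control became 1 higher and 5 lower in the ferlin list, 1 and 4 in the LIM domain list, 2 and 3 in the bundling list and 3 and 4 in the muscle-defining list, so the balance of directions in these lists depends on the scaling.

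**Figure D4:**
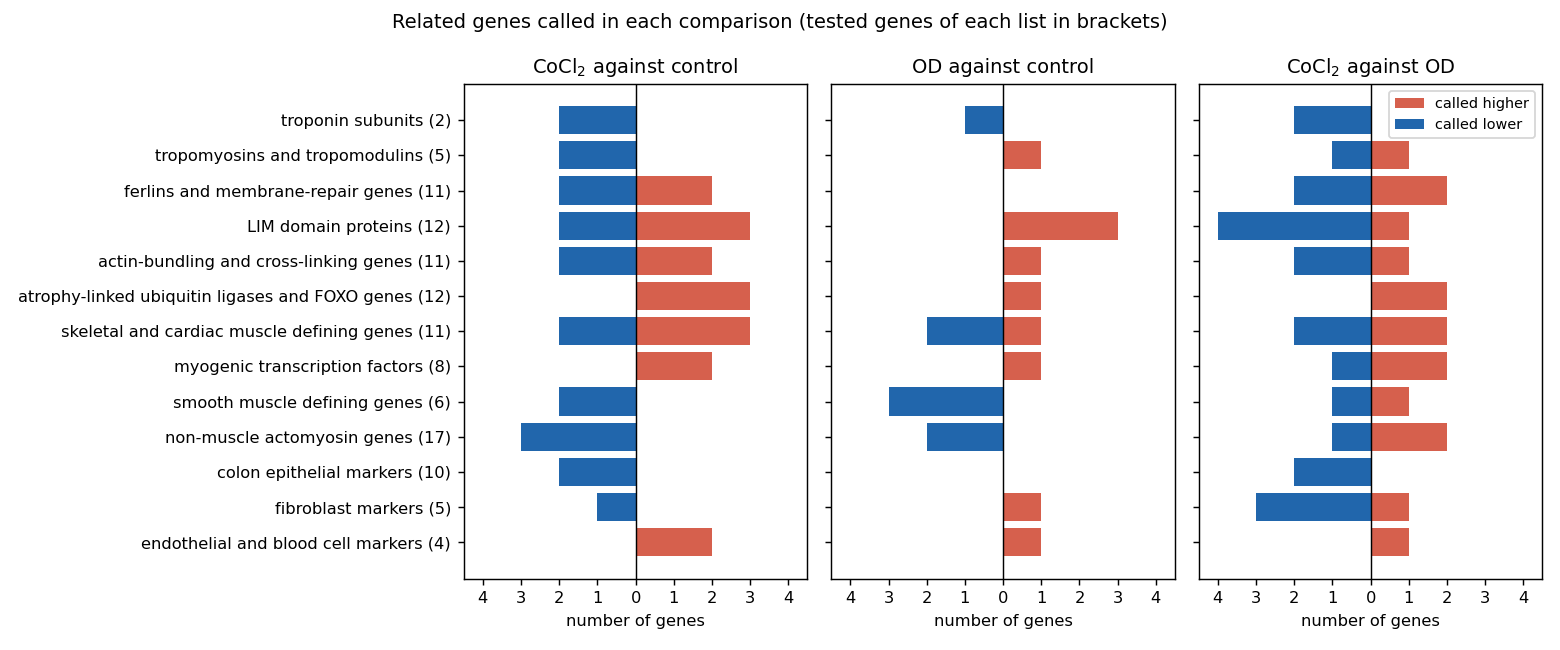
Number of genes called higher (to the right) and lower (to the left) in 13 lists of related genes, with the number tested in brackets, for CoCl2 against control, OD against control and CoCl2 against OD. Every list has at most 4 calls in a direction. The lists of troponins, with 2 genes tested, and of colon epithelial markers have lower calls only.

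Markers of other tissues were checked in the same libraries. Of 10 tested colon epithelial markers, 2 were called lower with CoCl2, VIL1 and KRT20 (-1.44), and none with OD, and their sum was 11500 to 12030 CPM in control, 13953 to 14933 CPM with CoCl2 and 11035 to 11598 CPM with OD. The 8 fibroblast markers summed to 109.1 to 118.4, 101.1 to 103.0 and 87.4 to 92.7 CPM, most of it PDGFRA (90.3 CPM in control), with DCN and COL1A2 at 0 counts in control. The 11 endothelial and blood cell markers summed to 36.2 to 41.4, 53.3 to 57.2 and 37.2 to 40.7 CPM, most of it LYZ (35.9 CPM in control), with PTPRC and HBB at 0 in control. CoCl2 gave 1 lower call among 5 tested fibroblast markers, PDGFRB (-2.31), and 2 higher calls among 4 tested endothelial and blood cell markers, and OD gave 1 higher call in each list. The part of these markers in the results above was not tested.

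Across the 10 genes, levels per kilobase of annotated exons in control ran from MYBPH (22.1 ± 1.94 CPM per kb) through TNNC1 (18.2 ± 0.130), FSCN1 (18.1 ± 0.603), TPM2 (3.98 ± 0.134), TNNT1 (2.77 ± 0.294), CSRP2 (1.48 ± 0.157), TNNI2 (1.28 ± 0.250) and DYSF (0.186 ± 0.0386) to FBXO32 (0.00927) and TNNC2 at 0. TNNC1 and FSCN1, and likewise CSRP2 and TNNI2, did not differ beyond their spread. The order depends on the length used. Per kilobase of the canonical transcript, TNNC1 (30.2) and FSCN1 (24.1) were above MYBPH (22.1), and CSRP2 came to 9.53 CPM per kb, above TNNT1 (5.29), since its canonical transcript has 908 of 5842 annotated exonic bases.

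The genes with the pattern most like each of the 5 picked genes were found by the root mean square difference of log2 CPM, relative to control, over the 9 libraries among 13429 genes. For TNNI2 they were SLCO2A1 (0.316 log2 units), a prostaglandin transporter gene, SYT8 (0.398), a synaptotagmin gene, and BMP6 (0.805). SYT8 is also the neighbour of TNNI2: it lies at chr11:1828307-1837521 on the same strand and ends 1459 bases upstream. Its level was 6.83, 5.74 and 5.67 CPM in control, 2.18, 1.39 and 2.41 CPM with CoCl2 and 49.0, 50.02 and 45.8 CPM with OD. As for TNNI2, OD libraries were far above control and CoCl2 libraries below it, with log2 differences of 2.99 and -1.56. SLCO2A1 had 1.45, 1.03 and 1.01 CPM in control, 0.311, 0.232 and 0.524 CPM with CoCl2 and 11.8, 10.7 and 11.8 CPM with OD.

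**Figure D5:**
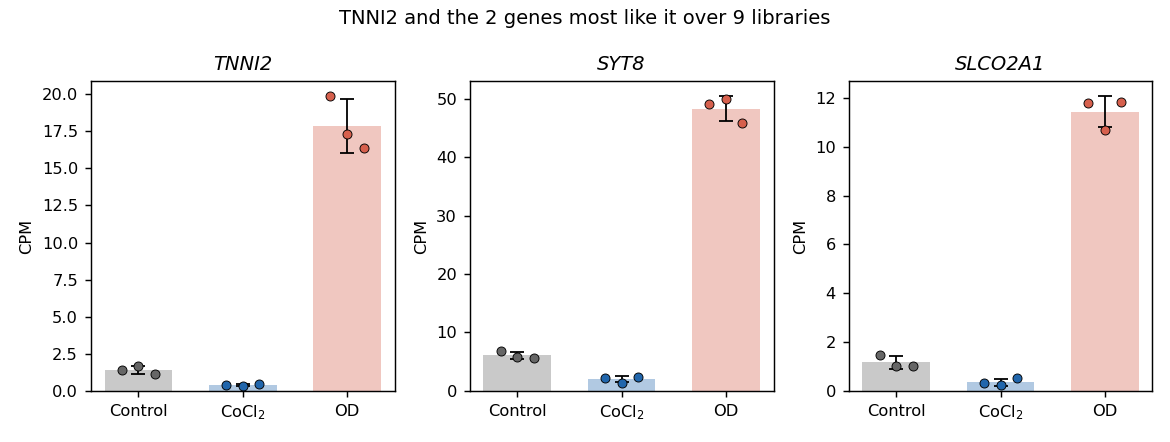
CPM (vertical axes, separate scales) of TNNI2 and of SYT8 and SLCO2A1 in 3 control, 3 CoCl2 and 3 OD libraries. Points are libraries, bars means and error bars SD. OD libraries are highest and CoCl2 libraries lowest in all 3 panels.

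For CSRP2 the closest were ATF3 (0.115), the gene of a stress-induced transcription factor, PFKFB3 (0.125), the gene of a glycolytic regulator enzyme, and DUSP5 (0.142), a phosphatase gene. For DYSF they were PLEKHM3 (0.130), FBXL20 (0.132) and RRAD (0.138). FBXO32 was followed by BNIP3P1 (0.403), PDK1 (0.440) and TCAF2 (0.466), with distances that reflect its few control counts: with a prior count of 0.5 in place of 2, the closest were DDIT4, TCAF2 and BNIP3. No gene came near MYBPH, whose closest were AC244502.1 (1.20), AC007493.1 (1.40) and VPS9D1-AS1 (1.56).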

How the data were processed

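The authors trimmed and mapped single-end reads with cutadapt 2.10 and STAR 2.7.5b to GRCh38.p13 with FastQC 0.11.9 for quality, per their methods and processing notes, and deposited raw counts per gene symbol. The counting tool, its strand setting and its handling of multi-mapped reads are not given in the sources used here. Of 60591 symbols, 24486 had no count in any library. After edgeR's filterByExpr, 15944 genes were tested with the quasi-likelihood F test (edgeR 4.0.16, R 4.3.3) on all 9 libraries with TMM factors, and p-values were adjusted by Benjamini-Hochberg over all of them. Of the 10 genes, 9 passed the filter. The members and the gene lists were chosen with earlier results of these data known. List genes were named where called with a mean of at least 1 CPM over the 9 libraries, at most 4 per list and comparison by size of change. On simulated counts for 15488 genes, 200 of 200 changed genes were recovered with 2 false calls. The changed genes all lay above 1 CPM, had the same large fold, balanced between up and down, and changed in the CoCl2 group only. This check therefore does not cover small changes, low counts or the far larger share of genes called with CoCl2. Positions and lengths are from GENCODE 44. Alternatives included DESeq2 1.42.0, other scalings, filters, thresholds, a replicate block and leaving out each replicate.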

Additional observations from a re-analysis of the deposited data

How the results depend on the processing

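Of the alternative values of the 9 tested genes, 514 kept their direction and their side of the threshold or stayed within the spread, and 11 of the values given without a test moved by more than the spread. Reversals occurred with library size alone, for CSRP2 (-0.099) and FSCN1 (-0.22) in CoCl2 against OD. FSCN1 lost its call against control with CoCl2 under the same scaling (0.95), and with adjusted p alone TNNT1 with OD and FSCN1 between the compounds gained calls. FSCN1 with OD kept its call throughout, with adjusted p up to 0.0170 by glmTreat. The core list had already required such a change in these libraries, so this stability is not independent evidence. A filter of at least 10 counts in every library left out MYBPH, TNNI2 and FBXO32, and with control and CoCl2 libraries alone FBXO32 failed the usual filter. Over all genes, 6891 were called with CoCl2, 2113 with OD and 6580 for CoCl2 against OD. Adjusted p alone gave 13260, 10466 and 13311, and for OD the stricter filter gave 1134 and glmTreat 965. Leaving out each replicate gave 6908 to 7207, 2150 to 2274 and 6572 to 6917.

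Same-numbered libraries did not deviate together (correlations from -0.0049 to 0.038), so the labels' numbers were not taken as pairs. With the replicate block the counts were 6901, 2115 and 6568, and no call among the 9 tested genes changed. Depth limits TNNC2, FBXO32 in control, and TNNI2 and MYBPH with CoCl2, which rest on 20 or fewer counts per library.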
